A study of Mus musculus with 8 samples.

Results

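The genes described here are 10 regulators typical of early embryonic cells: the developmental pluripotency-associated genes Dppa2, Dppa4 and Dppa5a, and the RNA regulators Lin28a, Lin28b, Trim71, L1td1, Igf2bp1, Igf2bp2 and Igf2bp3. They were taken from a list of gene names. All 10 were found among the 17729 genes used, and all 10 were among the 11270 that passed the filter for testing (a mean of at least 1 FPKM over all samples). FPKM is a unit of expression that corrects fragment counts for transcript length and sequencing depth.

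RNA was sequenced from mouse E14TG2a embryonic stem cells, a feeder-free line of the 129/Ola strain, at passages 3 to 6. All groups grew on gelatin in serum medium with LIF at 1000 U/mL, CHIR99021 (an inhibitor of the kinase GSK3) and PD0325901 (an inhibitor of the kinase MEK). The unedited wild type (WT) was set against E1-KO, E2-KO and E3-KO, in each of which an enhancer had been removed with CRISPR/Cas9, and the series asks how enhancers and promoters bear on Sox2. Each of the 4 groups had 2 replicates, 8 samples in all, and whether an E-KO group is 1 clone or several is not given in the labels. Edited cells with intact enhancers were not analysed here, so the loss of an enhancer cannot be told apart from other differences of clone, culture or library. In bulk RNA, fewer cells expressing a gene and less RNA per cell cannot be told apart either.

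DPPA2 and DPPA4 are DNA-binding proteins with a SAP domain that act as a pair on chromatin, and DPPA5A is a small protein with a KH-type fold. LIN28A and LIN28B bind the let-7 precursor and block its maturation, while mature let-7 in turn represses many mRNAs that carry its seed match. TRIM71 is a repressor of mRNAs and was first known in worms as a let-7 target, L1TD1 is an RNA-binding protein derived from a LINE-1 element, and IGF2BP1 to IGF2BP3 bind mRNAs and regulate their stability, transport and translation.

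The let-7 family connects several of these genes, so its seed and the matching sites are shown first. Mature sequences came from RefSeq (GRCm38.p6), with the seed, bases 2 to 8, in capitals. Of 11 family members, 10 share the seed GAGGUAG, and let-7j carries GAGGUAU.
mmu-let-7a-5p: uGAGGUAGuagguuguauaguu
mmu-let-7g-5p: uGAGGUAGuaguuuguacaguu
mmu-miR-98-5p: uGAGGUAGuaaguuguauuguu
mmu-let-7j: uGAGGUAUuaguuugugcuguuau

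The longest annotated 3' UTR of each gene (GENCODE M21, GRCm38) was searched on the transcribed strand for CTACCTC, the complement of the seed, and for the 8-base form CTACCTCA. The 8-base form was found in 6 of the 10 genes and the remaining 4, Dppa2, Dppa4, Dppa5a and L1td1, held neither form. The 6 genes are both Lin28 genes, Trim71 and the 3 Igf2bp genes, and they hold 16 sites, 12 of them of the 8-base form. Among the 3' UTRs of 10933 tested genes, 10.7% held the 7-base and 3.77% the 8-base form. Length matters for such a count, and among the 3168 tested genes with a 3' UTR of at least 2000 bases the shares were 21.4% and 8.08%. A match is a description of the letters, and mature let-7 was not measured here.

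Trim71 has 4 sites of the 8-base form in 5512 bases, Igf2bp1 has 4 sites in 6337 bases (3 of the 8-base form), and Lin28b has 4 in 4445 bases (1 of the 8-base form). Lin28a has 2 in 2775 bases, and Igf2bp2 (1784 bases) and Igf2bp3 (2119 bases) have 1 each. The 3' UTRs without a site were shorter, at 1012 bases for Dppa2, 505 for Dppa4, 364 for L1td1 and 184 for Dppa5a. One or 2 sites per gene are printed with the match in capitals, all read on the minus strand of GRCm38, to show that the flanking bases differ while the match is the same.
Lin28a, chr4:134005189-134005210: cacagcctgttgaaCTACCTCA
Lin28a, chr4:134004551-134004572: agatcgccacaaacCTACCTCA
Lin28b, chr10:45381022-45381043: cccgggcgggaagtCTACCTCA
Trim71, chr9:114512472-114512493: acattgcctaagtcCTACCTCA
Trim71, chr9:114512376-114512397: gtgataatttctatCTACCTCA
Igf2bp1, chr11:95961778-95961799: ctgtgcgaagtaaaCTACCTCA
Igf2bp2, chr16:22059473-22059494: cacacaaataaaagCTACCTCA
Igf2bp3, chr6:49086787-49086808: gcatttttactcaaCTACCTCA

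**Figure D1:**
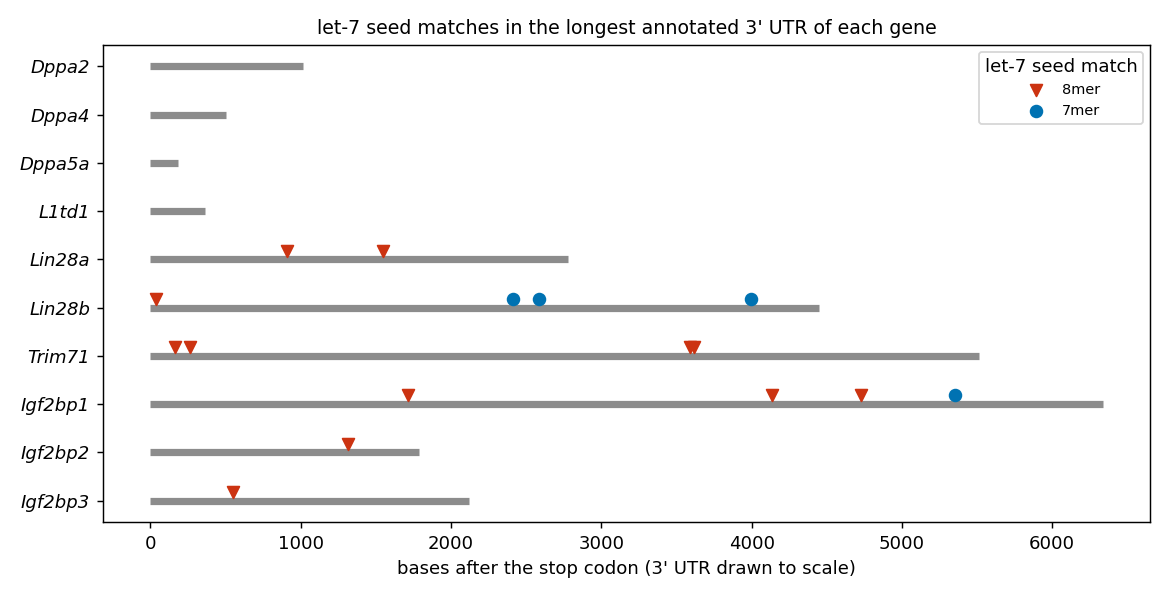
The 3' UTR of each gene is drawn to scale in bases after the stop codon, with each let-7 seed match marked as a 7-base or an 8-base site. Trim71, Igf2bp1 and Lin28b have 4 sites each, and the lines of Dppa2, Dppa4, Dppa5a and L1td1 carry none.

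The relative depth of the 8 samples could be estimated only roughly. Steps between low values gave depths of 0.785 to 1.01 relative to WT replicate 1, and absolute depth is unknown. Each estimate rests on the most common ratio, which held 10.7% to 17.1% of the ratios of low values. The lowest and the highest depth were those of the 2 E3-KO replicates. Between 11076 and 11263 genes reached 1 FPKM. Sox2, the gene the series is about, had log2 differences from WT of -1.16, -0.34 and -0.50 for E1-KO, E2-KO and E3-KO, and the E2-KO value missed the limma-trend threshold when either WT sample, either E1-KO sample or E2-KO replicate 2 was left out (adjusted p = 0.0593 to 0.172), and with median-ratio scaling, only the pair fitted or no trend (adjusted p = 0.0642, 0.0567 and 0.0519). The 6 embryonic stem cell markers were Pou5f1, Sox2, Nanog, Zfp42, Esrrb and Tdgf1, and their lowest single value was 58.0 FPKM. They summed to 1734 to 1756 FPKM in WT, 1792 to 1863 FPKM in E1-KO, 1898 to 2055 FPKM in E2-KO and 1501 to 1677 FPKM in E3-KO. In E1-KO, E2-KO and E3-KO 0, 2 and 0 of them were called higher (15%, 14.2% and 13.9% of all tested genes). In the same order 2, 1 and 3 were called lower (23%, 22% and 30.8%). The 6 fibroblast or feeder markers summed to 1.14 to 1.57 FPKM in WT, 3.49 to 3.52 FPKM in E1-KO, 2.36 to 2.91 FPKM in E2-KO and 3.54 to 3.76 FPKM in E3-KO. All but Thy1 were under 1 FPKM in all samples, and Thy1, the 1 tested, was called higher in all 3 groups. Markers of other lineages differed between groups, at low levels apart from Tfap2c. Both neural markers with a value here, Pax6 and Neurod1, summed to 1.46 to 2.01 FPKM in WT, 4.19 to 4.48 FPKM for E1-KO, 2.16 to 2.96 FPKM for E2-KO and 5.73 to 6.40 FPKM for E3-KO. The 4 primitive endoderm markers summed to 1.34 to 1.37 FPKM in WT, 0.644 to 0.745 FPKM for E1-KO, 0.918 to 1.00 FPKM for E2-KO and 2.18 to 4.44 FPKM for E3-KO. The 5 trophectoderm markers, mostly Tfap2c, summed to 38.1 to 41.3 FPKM in WT, 22.9 to 25.5 FPKM for E1-KO, 25.1 to 31.7 FPKM for E2-KO and 36.1 to 41.9 FPKM for E3-KO. In E3-KO they did not move together. Gata3 was at 8.86 and 4.84 FPKM there, against 1.48 and 1.56 FPKM in WT. Tfap2c was at 29.3 and 26.4 FPKM in E3-KO, against 32.4 and 34.9 FPKM in WT. The 4 mesoderm markers summed to 1.47 to 3.02 FPKM over all samples without moving together. T was at 1.70 and 2.09 FPKM in WT and at most 0.348 FPKM in the knockouts, while all 6 knockout samples lay above WT for Mixl1 and Kdr. No marker was at 0 in all 8 samples, and the part of such cells in the values below was not tested.

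Dppa2 and Dppa4 are neighbours on chromosome 16 (GRCm38 chr16:48303908-48319723 and chr16:48283733-48294237, both on the plus strand, 9671 bases apart). Dppa2 rose in every knockout group, by 2.72-fold in E1-KO, whereas Dppa4 rose in E1-KO and was split between replicates elsewhere. Dppa2 was at 21.5 and 20.9 FPKM in WT, 59.7 and 55.7 FPKM in E1-KO, 66.0 and 45.4 FPKM in E2-KO, and 73.1 and 65.3 FPKM in E3-KO. All 6 knockout samples lay above both WT samples. For E1-KO, E2-KO and E3-KO the log2 differences from WT were 1.40, 1.33 and 1.66 (SE 0.157; limma-trend adjusted p = 0.000399, 0.000545 and 0.000127). They held when any 1 sample was left out.

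Dppa4 was at 66.3 and 65.6 FPKM in WT and at 219 and 204 FPKM in E1-KO. It was at 111 and 63.8 FPKM in E2-KO and at 72.8 and 187 FPKM in E3-KO. The E1-KO samples lay far above WT, E2-KO overlapped WT, while E3-KO had 1 sample close to WT and 1 close to E1-KO. In E1-KO the log2 difference was 1.67 (SE 0.378, limma-trend adjusted p = 0.00888). The call was lost without WT replicate 2 or E1-KO replicate 1, where the differences were 1.66 and 1.62. It held when only the E1-KO and WT samples were fitted, and all leave-one-out differences lay between 1.62 and 1.71. The SE is pooled over all groups. The replicates were 1.73-fold apart in E2-KO and 2.57-fold in E3-KO, against 1.01-fold in WT and 1.07-fold in E1-KO. The E2-KO difference of 0.35 and the E3-KO difference of 0.81 did not pass the limma-trend threshold (adjusted p = 0.499 and 0.108). Leaving out E3-KO replicate 1 gave 1.49 (limma-trend adjusted p = 0.00474), and leaving out E3-KO replicate 2 gave 0.14. The order of the group means was WT, E2-KO, E3-KO and E1-KO, at 65.96 ± 0.456, 87.2 ± 33.1, 129.9 ± 80.7 and 212 ± 10.1 FPKM (SD, n = 2). The E2-KO samples overlapped those of WT and those of E3-KO. Both E3-KO samples lay below both E1-KO samples, but that difference of -0.85 did not pass (limma-trend adjusted p = 0.128).

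Genes of the 2-cell-like programme are known to depend on DPPA2 and DPPA4. Of the 11 listed, 5 had a value (Zscan4c, Zscan4d, Zscan4f, Zfp352 and Tdpoz4), and none reached the filter for testing. The highest value of any of them was 1.88 FPKM, for Zscan4f in E3-KO replicate 1. Zscan4f was at 0.688 and 0.398 FPKM in WT and at 1.88 and 1.71 FPKM in E3-KO, and E1-KO overlapped WT. Zscan4c and Zscan4d lay above both WT samples in all 6 knockout samples, as did 15.3% of tested genes. Neither was among those tested, and whether reads were shared among the Zscan4 genes was not tested. Zscan4c was at 0.374 and 0.226 FPKM in WT and between 0.433 and 1.23 FPKM in the knockouts, and Zscan4d at 0.144 and 0.261 FPKM and between 0.451 and 0.832 FPKM. Zfp352 and Tdpoz4 stayed at or under 0.352 FPKM and overlapped WT. The other neighbour of Dppa2 that was tested, Morc1, a germ-cell ATPase gene 111514 bases away, did not pass in any comparison with WT (log2 -0.02, 0.10 and -0.25, in group order).

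**Figure D2:**
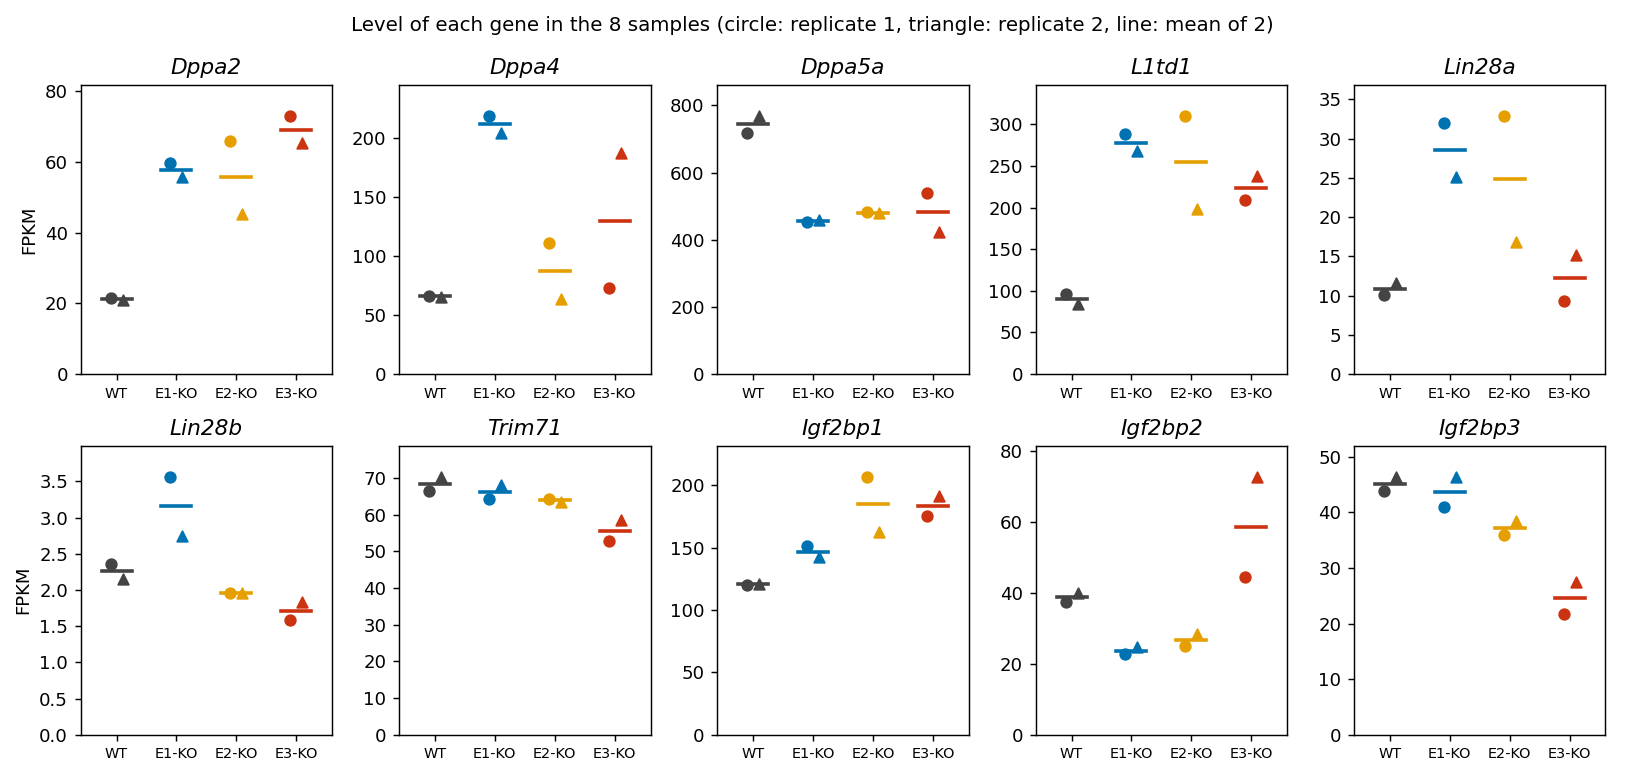
FPKM of each of the 10 genes in WT, E1-KO, E2-KO and E3-KO, with replicate 1 as a circle, replicate 2 as a triangle and the mean as a line; each panel has its own axis, which starts at 0. Dppa2 and L1td1 lie above WT in all 6 knockout samples and Dppa5a below it, while Dppa4 in E3-KO is split between 72.8 and 187 FPKM.

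Dppa5a (GRCm38 chr9:78367052-78368177, minus strand) had the highest level of the 10 genes per transcript length, and it fell in every knockout group. It was at 718 and 769 FPKM in WT, 453 and 459.8 FPKM in E1-KO, 481 and 480.2 FPKM in E2-KO, and 540.1 and 423 FPKM in E3-KO. All knockout samples lay below both WT samples, E1-KO and E2-KO did not overlap, and E3-KO spanned both. The log2 differences were -0.70, -0.63 and -0.64 for E1-KO, E2-KO and E3-KO (SE 0.133; limma-trend adjusted p = 0.00396, 0.00705 and 0.00494). The E2-KO call was lost without WT replicate 2 (limma-trend adjusted p = 0.0659). Dppa5b and Dppa5c are annotated pseudogenes of Dppa5a on the same chromosome, so its value is uncertain where reads can be shared. Ooep, an oocyte gene 7932 bases away with a related KH-type protein, also fell in each group (log2 -0.65, -0.42 and -0.50).

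L1td1 (GRCm38 chr4:98726734-98738480, plus strand) rose in all 3 knockout groups, with group means 2.47 to 3.08 times that of WT. It was at 96.5 and 84.1 FPKM in WT, 288 and 268 FPKM in E1-KO, 310.1 and 199 FPKM in E2-KO, and 209 and 238 FPKM in E3-KO. Every knockout sample lay above both WT samples, and E2-KO spanned the other knockout groups. The log2 differences for E1-KO, E2-KO and E3-KO were 1.61, 1.45 and 1.30 (SE 0.188; limma-trend adjusted p = 0.000453, 0.000802 and 0.000892). Patj, a cell polarity gene 7131 bases away on the same strand, went the other way, with log2 differences of -1.15, -1.60 and -0.83 (limma-trend adjusted p = 0.00109, 0.000319 and 0.0037).

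Lin28a and Lin28b encode the blockers of let-7 maturation. Per transcript length Lin28a was the higher of the pair in every sample. Lin28a (GRCm38 chr4:134003330-134018841, minus strand) rose in 2 groups, E1-KO and E2-KO. Its levels were 10.1 and 11.5 FPKM in WT, 31.9 and 25.2 FPKM in E1-KO, 32.9 and 16.8 FPKM in E2-KO, and 9.34 and 15.2 FPKM in E3-KO. The E1-KO and E2-KO samples lay above WT while E3-KO spanned WT, and the E2-KO replicates stood 1.95-fold apart. The log2 differences for E1-KO, E2-KO and E3-KO were 1.31, 1.06 and 0.13 (SE 0.296; limma-trend adjusted p = 0.00868, 0.0225 and 0.743).

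The Lin28a calls did not hold in every fit with 1 sample left out. In E1-KO the limma-trend adjusted p was 0.0545 without WT replicate 1 and 0.0679 without E1-KO replicate 1. In E2-KO it was 0.111 without WT replicate 1, 0.077 without WT replicate 2 and 0.128 without E2-KO replicate 1, where the difference was 0.59. Testing all genes above 0 also ended the E2-KO call (limma-trend adjusted p = 0.0671). A non-coding gene, Gm13061, overlaps Lin28a on the other strand, and whether counting used the strand is not given in the sources used here.

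Lin28b (GRCm38 chr10:45376620-45486395, minus strand) was the lowest of the 10 genes. It was at 2.36 and 2.16 FPKM in WT, 3.56 and 2.74 FPKM in E1-KO, 1.96 and 1.96 FPKM in E2-KO, and 1.58 and 1.83 FPKM in E3-KO. Both E1-KO samples were above WT and the E2-KO and E3-KO samples below it. No difference from WT passed the limma-trend test, with log2 values of 0.34, -0.14 and -0.27 (adjusted p = 0.106, 0.505 and 0.18).

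A promoter sequence was on hand for 6 of the 10 genes (L1td1, Lin28a, Lin28b, Trim71, Igf2bp2 and Igf2bp3). The 200 bases that end 51 bases before the RefSeq start (GRCm38.p6) were searched on both strands for the octamer ATGCAAAT and for the SOX cores ACAATG and ACAAAG, which were counted separately and do not overlap as words. Of 32851 such windows, 1.32%, 8.94% and 13.6% held a match. Lin28a held ACAATG, on the strand opposite to the one printed and shown in capitals as CATTGT, and the windows of the other 5 genes held none of the motifs. The Lin28b window (chr10:45470252-45470451) lies inside the annotated gene, before an internal RefSeq start. The bases before the outermost start of Lin28b were therefore not searched. The Lin28a window is printed with that of L1td1, since both genes rose in those 2 knockouts, E1-KO and E2-KO.
Lin28a, chr4:134018867-134019066, minus strand: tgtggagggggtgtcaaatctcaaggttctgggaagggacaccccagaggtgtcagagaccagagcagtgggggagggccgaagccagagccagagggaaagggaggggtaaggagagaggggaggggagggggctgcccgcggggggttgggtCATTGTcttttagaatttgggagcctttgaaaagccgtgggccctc
L1td1, chr4:98726504-98726703, plus strand: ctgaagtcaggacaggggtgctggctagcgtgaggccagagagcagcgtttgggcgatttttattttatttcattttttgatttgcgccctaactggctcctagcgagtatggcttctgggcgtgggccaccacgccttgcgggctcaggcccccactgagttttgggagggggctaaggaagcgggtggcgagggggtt

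Trim71 (GRCm38 chr9:114507133-114564369, minus strand), the mRNA repressor, was the steadiest of the 10 genes, between 52.8 and 70.3 FPKM in all 8 samples. It was at 66.3 and 70.3 FPKM in WT, 64.2 and 68.1 FPKM in E1-KO, 64.3 and 63.5 FPKM in E2-KO, and 52.8 and 58.4 FPKM in E3-KO. Only the E3-KO samples stood below all others, while E1-KO overlapped WT. The log2 difference of -0.29 in E3-KO passed narrowly (SE 0.095, limma-trend adjusted p = 0.033), while the E1-KO and E2-KO values were -0.05 and -0.09 (adjusted p = 0.721 and 0.46). With median-ratio scaling the E3-KO value was -0.12 (limma-trend adjusted p = 0.334), with only the pair or no trend the adjusted p was 0.0548 and 0.0564, and the call was lost without WT replicate 1 or 2, E1-KO replicate 1 or 2, or E3-KO replicate 1 (adjusted p = 0.0587 to 0.191). C130032M10Rik overlaps Trim71 on the other strand.

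The 3 Igf2bp genes, which encode related mRNA-binding proteins, each followed a pattern of its own. Igf2bp1 (GRCm38 chr11:95957163-96005940, minus strand) rose in E2-KO and E3-KO. It was at 120.1 and 121 FPKM in WT, 151 and 143 FPKM in E1-KO, 207 and 162 FPKM in E2-KO, and 175 and 191 FPKM in E3-KO. All 6 knockout samples lay above WT, and the E2-KO and E3-KO samples above E1-KO. The log2 differences for E1-KO, E2-KO and E3-KO were 0.28, 0.60 and 0.60 (SE 0.125; limma-trend adjusted p = 0.104, 0.00654 and 0.00489). The E1-KO value passed when only the E1-KO and WT samples were fitted (limma-trend adjusted p = 0.00946), and without E2-KO replicate 1 or 2 (adjusted p = 0.0322 and 0.0321). Gm29202 overlaps Igf2bp1 on the other strand.

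Igf2bp2 (GRCm38 chr16:22059009-22163299, minus strand) was below WT in E1-KO and above it in E3-KO. It was at 37.4 and 40.0 FPKM in WT, 22.8 and 24.7 FPKM in E1-KO, 25.1 and 28.5 FPKM in E2-KO, and 44.5 and 72.7 FPKM in E3-KO. No knockout group overlapped WT, and the E3-KO replicates were 1.63-fold apart. The log2 differences from WT, with E1-KO first and E3-KO last, were -0.68, -0.52 and 0.55 (SE 0.193; limma-trend adjusted p = 0.0226, 0.0647 and 0.0455). Neither call against WT held in every fit. That of E1-KO was lost when all genes above 0 were tested (limma-trend adjusted p = 0.0602). It was also lost when any 1 of the 4 E1-KO and WT samples was left out, with differences of -0.74 to -0.63. That of E3-KO was lost in every leave-one-out fit but the one without E3-KO replicate 1, and without E3-KO replicate 2 the difference was 0.20 (limma-trend adjusted p = 0.246). It was also lost with only the pair fitted, with all genes above 0 and with no trend (limma-trend adjusted p = 0.0782, 0.0975 and 0.0604). The E2-KO difference passed when only E2-KO and WT were fitted (limma-trend adjusted p = 0.0147) and without E3-KO replicate 1 or 2 (adjusted p = 0.0066 and 0.00678).

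Igf2bp3 (GRCm38 chr6:49085223-49214957, minus strand) fell in E3-KO to 0.545 of the WT mean. It was at 43.8 and 46.4 FPKM in WT, 41.0 and 46.4 FPKM in E1-KO, 35.9 and 38.4 FPKM in E2-KO, and 21.7 and 27.4 FPKM in E3-KO. E3-KO lay below all other samples, E1-KO overlapped WT, and E2-KO lay between. The log2 difference in E3-KO was -0.86 (SE 0.126, limma-trend adjusted p = 0.000943), and those for E1-KO and E2-KO were -0.05 and -0.27 (adjusted p = 0.796 and 0.12). Malsu1 overlaps Igf2bp3 on the other strand, and its log2 differences from WT were -1.08 in E3-KO and -0.26 in E1-KO. Whether reads were shared between the overlapping genes was not tested.

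Igf2bp3 lies on chromosome 6, whose genes were lower as a group in E3-KO. The median log2 difference of the 536 tested chromosome 6 genes was -0.62 in E3-KO and that of all other genes -0.13. Of the chromosome 6 genes, 347 were called lower, which is 64.7%, against 29.1% elsewhere. Igf2bp3 had a value -0.24 relative to the chromosome median, and 31.5% of chromosome 6 genes were at or below it. In E1-KO the medians were -0.05 on chromosome 6 and -0.06 elsewhere. The part of the chromosome-wide difference in the Igf2bp3 value was not tested.

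**Figure D3:**
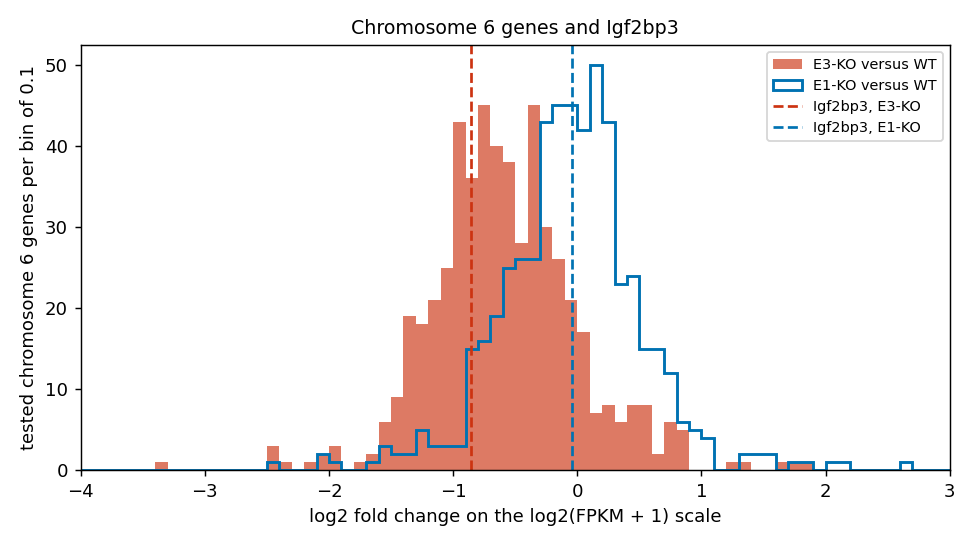
Histogram of the log2 fold change against WT of the 536 tested chromosome 6 genes in E3-KO (filled) and E1-KO (outline), with dashed lines at Igf2bp3 (-0.86 and -0.05). The E3-KO distribution is centred at -0.62 and the E1-KO distribution at -0.05.

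The counts of members called are given beside the share of all tested genes. In E1-KO 6 of 10 passed (4 higher and 2 lower), where 38% of all tested genes passed, 15% higher and 23% lower. For E2-KO the count was 5 (4 higher, 1 lower), against 36.1% of all tested genes, 14.2% higher and 22% lower. For E3-KO it was 7 (4 higher, 3 lower), against 44.7% of all tested genes, 13.9% higher and 30.8% lower. The median log2 difference of the members was 0.31, 0.13 and 0.34, beside -0.062, -0.076 and -0.151 over all tested genes.

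Dppa2 and L1td1 were called higher in all 3 knockouts, as were 6.56% of tested genes, and Dppa5a was called lower in all 3, as were 13%. Dppa2, L1td1 and Igf2bp1 lay above both WT samples in all 6 knockout samples (15.3% of tested genes did), and Dppa5a lay below in all 6 (28.5%). The 3 comparisons share the same WT samples. More genes were called lower than higher in E3-KO, 3471 against 1566, but this split depended on the scaling and was 2459 against 2276 with quantile normalization and 2371 against 2357 with median-ratio scaling. For E1-KO it was 2590 lower and 1694 higher (2169 and 2060 with median-ratio scaling), and for E2-KO 2476 and 1595 (1968 and 2002). Between E3-KO and E1-KO 1850 were lower and 1061 higher (1297 and 1450), and between E3-KO and E2-KO 1136 and 618 (818 and 879). All 18 calls of members against WT held with quantile normalization and 17 with median-ratio scaling, the exception being Trim71 in E3-KO.

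**Figure D4:**
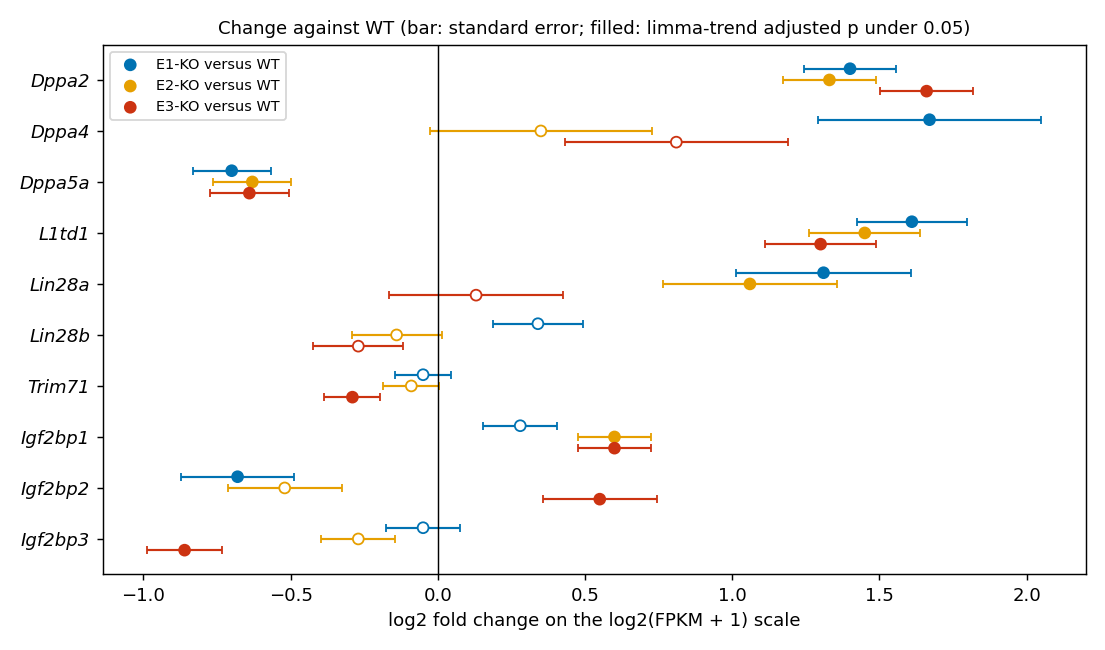
Log2 fold change against WT of the 10 genes in E1-KO, E2-KO and E3-KO on the log2(FPKM + 1) scale, with standard error bars; filled points have a limma-trend adjusted p under 0.05. Dppa2 and L1td1 are filled to the right of 0 and Dppa5a to the left in all 3 groups, and Igf2bp2 lies on opposite sides of 0 in E1-KO (-0.68) and E3-KO (0.55).

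Replicate spread set the precision of these values, and it was uneven among the genes. In E2-KO, Lin28a (0.93), Dppa4 (0.79), L1td1 (0.64) and Dppa2 (0.53) were all higher in replicate 1, on the log2(FPKM + 1) scale, where the median absolute difference of all tested genes was 0.168. Among tested genes, 0.861% were at least as far apart as Lin28a, 1.62% as Dppa4, 3.69% as L1td1 and 6.74% as Dppa2. In E3-KO, Dppa4 (-1.35), Igf2bp2 (-0.70) and Lin28a (-0.65) were higher in replicate 2, where the median was 0.176, and only 0.142% of tested genes were as far apart as Dppa4. The WT and E1-KO replicates were closer, with medians of 0.105 and 0.108. Lin28a (0.33) and Lin28b (0.29) in E1-KO were the farthest apart of the members in these groups. The E2-KO replicates had relative depths of 0.993 and 0.908, those of E3-KO 0.785 and 1.01, and the part of depth in the spread was not tested.

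**Figure D5:**
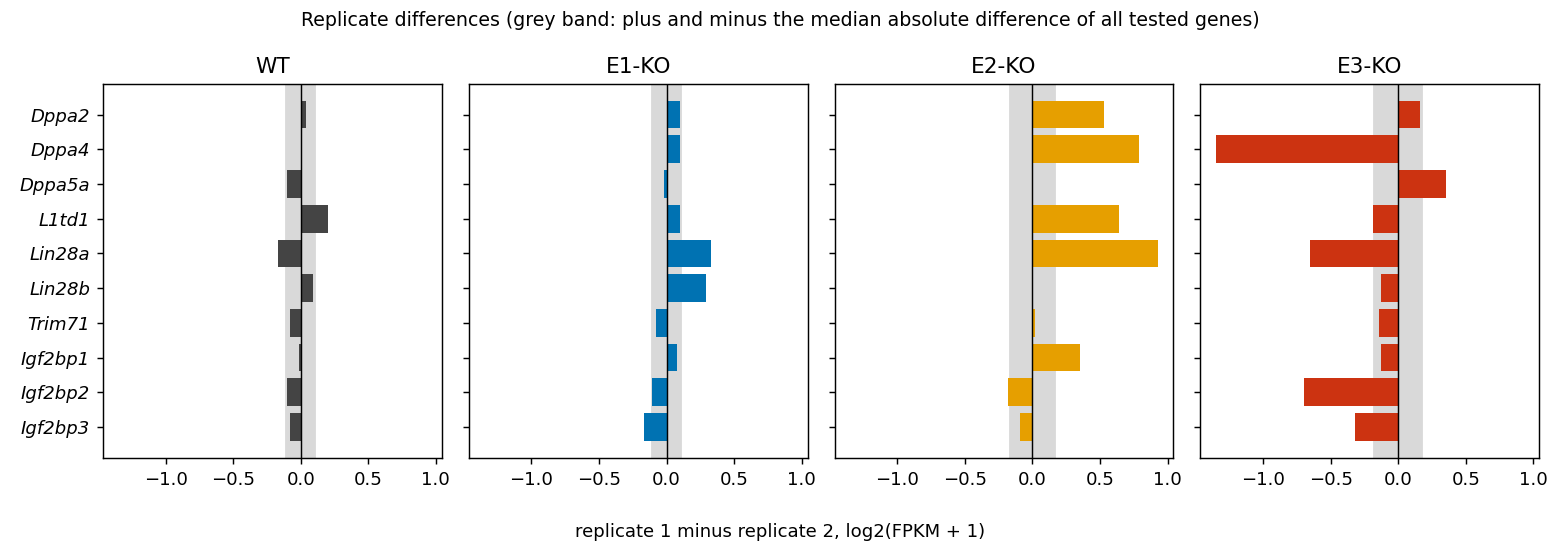
Difference between replicate 1 and replicate 2 of each gene in each group, on the log2(FPKM + 1) scale, with a grey band at plus and minus the median absolute difference of all tested genes. The bars of Lin28a and Dppa4 in E2-KO and of Dppa4 in E3-KO (-1.35) reach far outside the band.

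The knockout groups were also compared with one another. Between E2-KO and E1-KO no member passed the limma-trend test at an adjusted p under 0.05. Of all tested genes 0.834% passed, 0.488% higher and 0.346% lower. At an unadjusted p under 0.05 there were 3 members (Dppa4, Lin28b and Igf2bp1), beside 2091 of the 11270 tested genes. Dppa4 had the largest difference, -1.32 (SE 0.378, limma-trend adjusted p = 0.123), and its E2-KO and E1-KO samples did not overlap. That SE is pooled over all groups, including the split E3-KO pair. With 1 sample left out the difference lay between -1.71 and -0.93. Between E3-KO and E1-KO 4 members passed (1 higher, 3 lower), where 25.8% of all tested genes passed, 9.41% higher and 16.4% lower. Between E3-KO and E2-KO 2 passed (1 higher, 1 lower), where 15.6% passed, 5.48% higher and 10.1% lower. Some uncalled differences depended on single samples. Dppa4 in E3-KO versus E1-KO was -0.85, and -1.53 to -0.18 with 1 sample left out. Lin28a in E3-KO versus E2-KO was -0.93, and -1.39 to -0.46 with 1 sample left out.

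Igf2bp2 separated E3-KO from the other knockouts, with a log2 difference of 1.23 from E1-KO (SE 0.193, limma-trend adjusted p = 0.00232) and 1.06 from E2-KO (adjusted p = 0.00827). Igf2bp3 was lower in E3-KO by the same comparisons, at -0.81 (limma-trend adjusted p = 0.00214) and -0.58 (adjusted p = 0.0161), beside chromosome 6 medians of -0.59 and -0.58. The Igf2bp3 difference from E2-KO was lost without E2-KO replicate 2 (limma-trend adjusted p = 0.056), without E3-KO replicate 1 (adjusted p = 0.054) or with only those groups in the fit (adjusted p = 0.0696). Lin28a and Lin28b were lower in E3-KO than in E1-KO, by log2 values of -1.18 and -0.61 (limma-trend adjusted p = 0.0186 and 0.0182). The Igf2bp1 difference of 0.32 between E3-KO and E1-KO missed the threshold (limma-trend adjusted p = 0.0942) but passed with quantile normalization (0.39, adjusted p = 0.0234), with median-ratio scaling and without either E2-KO sample. The differences of Lin28a and Lin28b were lost without E1-KO replicate 1 (limma-trend adjusted p = 0.122 and 0.136) or without E3-KO replicate 1 (adjusted p = 0.114 and 0.0761), and that of Lin28a also when all genes above 0 were tested (adjusted p = 0.0571).

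Other genes of the let-7 pathway were taken from named lists. As for the members, their counts stand beside the 38%, 36.1% and 44.7% of all tested genes called in the E1-KO, E2-KO and E3-KO comparisons, and their medians beside -0.062, -0.076 and -0.151. Of 13 tested genes that process let-7 or act with it, 1 rose and 3 fell in both E1-KO and E2-KO, while 0 rose and 4 fell in E3-KO. Their medians were -0.13, -0.30 and -0.20. Prkra, which encodes a partner of Dicer, fell in each group, from a WT mean of 10.4 ± 0.566 FPKM to 5.88 ± 0.119, 3.47 ± 0.0565 and 4.55 ± 0.848 FPKM (SD, n = 2). Its log2 differences were -0.73, -1.35 and -1.05 (limma-trend adjusted p = 0.00406, 0.000329 and 0.000594). Tarbp2, which encodes another Dicer partner and is named after its values were seen, was the 1 that rose, by 0.34 in E1-KO and 0.48 in E2-KO (limma-trend adjusted p = 0.0467 and 0.0126). Its E1-KO call was lost without any 1 of the WT and E1-KO samples (limma-trend adjusted p = 0.0836 to 0.254), with all genes above 0 or with no trend (adjusted p = 0.0702 and 0.0692), and its E2-KO call without WT replicate 2 (adjusted p = 0.101). With median-ratio scaling it also passed in E3-KO, at 0.34 (limma-trend adjusted p = 0.0369). Khsrp, a let-7 precursor-binding protein gene, fell by 0.41, 0.47 and 0.54 on the log2 scale. Dis3l2, the nuclease that degrades uridylated let-7 precursors, fell by 0.35 and 0.51 in the E2-KO and E3-KO samples, and Dgcr8, of the Drosha complex, fell by 0.55 in E3-KO. The Khsrp calls in E1-KO and E2-KO and both Dis3l2 calls were lost without WT replicate 2 (limma-trend adjusted p = 0.0505 to 0.178), that of Khsrp in E1-KO also without E1-KO replicate 1 (adjusted p = 0.074), that of Dis3l2 in E2-KO also without any 1 of WT replicate 1 and the E1-KO and E2-KO samples (adjusted p = 0.0609 to 0.117). Quantile normalization ended both Dis3l2 calls (limma-trend adjusted p = 0.174 and 0.0622), and median-ratio scaling or fitting only the pair ended that of E2-KO (adjusted p = 0.0841 and 0.0557).

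Of 14 tested genes known as let-7 targets, 4 rose and 7 fell in E1-KO, 2 rose and 3 fell in E2-KO, while E3-KO had 2 that rose and 6 that fell, with medians of -0.22, -0.21 and -0.24, beside -0.062, -0.076 and -0.151 over all tested genes and the shares called of 38%, 36.1% and 44.7%. Myc, a growth-promoting transcription factor gene, rose from 1.41 ± 0.0659 FPKM in WT to 7.24 ± 0.153, 7.46 ± 3.32 and 3.65 ± 0.809 FPKM (SD, n = 2), with log2 differences of 1.77, 1.75 and 0.94 (limma-trend adjusted p = 0.000946, 0.00107 and 0.0131). Hmga2, a chromatin protein gene and a classical let-7 target, rose in E3-KO, from 14.9 ± 0.201 to 39.4 ± 8.78 FPKM (log2 1.33, limma-trend adjusted p = 0.000245), and its E1-KO and E2-KO values were -0.03 and -0.21. The cyclin gene Ccnd1 fell by 0.92 in E3-KO and by 0.43 in E1-KO. Leaving out either WT sample ended the E3-KO call of Myc and the E1-KO call of Ccnd1 (limma-trend adjusted p = 0.0534 to 0.13), as did leaving out E3-KO replicate 1 for Myc (adjusted p = 0.0763) and E1-KO replicate 1 for Ccnd1 (adjusted p = 0.2). The Ccnd1 call in E1-KO was also lost with median-ratio scaling and when every gene above 0 was tested (limma-trend adjusted p = 0.0642 and 0.0531).

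Of the mRNAs known to be repressed by TRIM71, 3 were tested, and 1 fell in E1-KO and also in E2-KO, while 2 fell in E3-KO, with 0 higher in any group. Among all tested genes 23%, 22% and 30.8% were called lower in E1-KO, E2-KO and E3-KO, and 15%, 14.2% and 13.9% higher. Cdkn1a, which encodes the cell cycle inhibitor p21, fell from 124 ± 8.78 FPKM in WT to 49.9 ± 0.172, 48.0 ± 8.17 and 72.2 ± 14.0 FPKM (SD, n = 2), with log2 differences of -1.29, -1.36 and -0.78 (limma-trend adjusted p = 0.000488, 0.00045 and 0.00357). Rbl1, a relative of the retinoblastoma gene, fell by 0.42 in E3-KO, but by 0.20 with quantile normalization (limma-trend adjusted p = 0.325), and the call was lost without WT replicate 1 or 2, E1-KO replicate 1 or 2, or E3-KO replicate 1 (adjusted p = 0.0586 to 0.181). Median-ratio scaling, fitting only the pair and testing all genes above 0 ended it too (limma-trend adjusted p = 0.188, 0.0745 and 0.0646). Of the RNAs that IGF2BP proteins bind, only Actb and Peg10 were tested. Peg10, on chromosome 6, fell by 0.38 and 0.83 in the E1-KO and E2-KO samples and had a value of 0.06 in E3-KO (limma-trend adjusted p = 0.691), and Actb passed in no comparison with WT. The E1-KO call of Peg10 was lost without any 1 of the WT and E1-KO samples (limma-trend adjusted p = 0.102 to 0.162), and with median-ratio scaling, all genes above 0 or no trend (adjusted p = 0.0514, 0.055 and 0.0508).

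Of 16 tested genes for other RNA-binding proteins of stem cells, 2 rose and 4 fell in E1-KO, 1 rose and 5 fell in E2-KO, while E3-KO had 1 that rose and 6 that fell, with medians of -0.04, -0.12 and -0.17. These counts are close to the shares of all tested genes called (38%, 36.1% and 44.7%), whose medians were -0.062, -0.076 and -0.151. Msi1, a translational regulator of stem cells, fell from 40.1 ± 3.25 FPKM in WT to 22.6 ± 0.115, 19.3 ± 3.02 and 13.4 ± 0.799 FPKM (SD, n = 2), with log2 differences of -0.80, -1.02 and -1.51 (limma-trend adjusted p = 0.00168, 0.000624 and 8.5e-05). Dazl, a germ-cell translational regulator, fell by 1.09, 0.60 and 0.72, and Cnot3, a subunit of the CCR4-NOT deadenylase, rose by 0.70, 0.38 and 0.40. Pum2, a repressor that binds 3' UTRs, fell by 0.50 in E1-KO and 0.58 in E3-KO. Without either WT sample the calls of Dazl and Cnot3 in E2-KO and E3-KO and of Pum2 were lost (limma-trend adjusted p = 0.0614 to 0.175). The same held without E3-KO replicate 2 for Dazl and Cnot3 (adjusted p = 0.0836 and 0.133 in E3-KO), without either E2-KO sample for both in E2-KO (adjusted p = 0.0733 to 0.105), without either E1-KO sample for Cnot3 in E2-KO (adjusted p = 0.0583 and 0.057), and for Pum2 without E1-KO replicate 1 in E1-KO or E3-KO replicate 1 in E3-KO (adjusted p = 0.29 and 0.0852). Quantile normalization ended the E2-KO call of Cnot3 (limma-trend adjusted p = 0.0934), median-ratio scaling both Pum2 calls (adjusted p = 0.0671 and 0.0733), and testing all genes above 0 the E2-KO calls of Dazl and Cnot3 and the E1-KO call of Pum2 (adjusted p = 0.0817, 0.063 and 0.0887). No trend ended the Cnot3 call in E2-KO and the Pum2 call in E1-KO (limma-trend adjusted p = 0.0558 and 0.058).

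The genes with the most similar pattern over the 8 samples, by Pearson's r of log2(FPKM + 1) among genes whose mean reached 5 FPKM, are named as a description. They share libraries and group structure with the members. For Dppa2 they were Basp1 (0.992) and Btf3 (0.989), for L1td1 Sltm (0.991) and Cfdp1 (0.99), and for Dppa5a Gmeb2 (0.991). For Lin28a they were Abcf1 (0.996) and Sec11c (0.98), and for Dppa4 Paf1 (0.98) and Iws1 (0.975). For Igf2bp3 they were Arhgef2 (0.989) and Lrp6 (0.987, also on chromosome 6), and for Trim71 Cabp1 (0.975). Igf2bp1 was closest to Zfp971 (0.983) and Fth1 (0.981), Igf2bp2 to Secisbp2l (0.978) and Noct (0.977), and Lin28b to Gls2 (0.98) and Prr11 (0.971). Among the members themselves Trim71 and Igf2bp3 had r = 0.979 and Dppa2 and L1td1 0.934, while the neighbours Dppa2 and Dppa4 had 0.563, over 8 samples.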

How the data were processed

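Total RNA of 8 samples was sequenced as paired reads of 150 bases, per the labels' protocols. Per the submitters' processing notes the tools included Trimmomatic 0.36, TopHat2 2.0.12 and Cufflinks 2.2.1, with the build mm9. The authors deposited 1 value per gene and sample, taken here as FPKM from the values and from Cufflinks, since no header states the unit. The annotation, any normalization between samples and whether counting used the strand are not given in the sources used here. Printed coordinates and sequences come from GRCm38 annotation, not from the files.

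Each file held 18774 rows and 17812 identifiers, of which 17262 had a symbol. Of 660 identifiers with several rows, 577 were kept by the 1 row that fitted the chromosome order, and 83 were left out. No member was repeated. The 11270 genes whose mean reached 1 FPKM were tested on log2(FPKM + 1) with limma-trend (limma 3.58.1, R 4.3.3), all 8 samples in 1 fit with 4 residual degrees of freedom, and a call needed a two-sided p-value under 0.05 after Benjamini-Hochberg adjustment over all tested genes. A fold change on that scale understates changes of low genes. No whole reads could be recovered, so depth is unknown and no counting interval is given. The labels call the replicates biological, but separate cultures or clones are not described, so p-values measure the spread between these samples.

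All 10 members are named. From each wider list, up to 4 genes called in a comparison with WT, with the largest changes, are named, and 2 nearest patterns per member, apart from a few that are not reported here. The members and lists were chosen with earlier results of these data known. Alternatives were a replicate block, fitting only the pair, quantile normalization, median-ratio scaling, no filter other than a value above 0, a filter at 5 FPKM, a pseudocount of 0.1, no trend, summing repeated identifiers and leaving out each sample. Leaving out chromosome 6 was chosen after seeing the data. The test was tried on simulated data. Figures used matplotlib 3.10.9 in Python 3.11.15.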

Additional observations from a re-analysis of the deposited data

Results flagged for a closer look

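In all, 6 differences of the 10 members between knockout groups passed the limma-trend test of the difference itself at an adjusted p under 0.05, each with 2 samples a group. Of all tested genes, 25.8% passed between E3-KO and E1-KO, 15.6% between E3-KO and E2-KO and 0.834% between E2-KO and E1-KO. Igf2bp2 was higher in E3-KO than in E1-KO by a log2 value of 1.23 and higher than in E2-KO by 1.06. Igf2bp3 was lower in E3-KO than in E1-KO, at -0.81, and than in E2-KO, at -0.58, beside chromosome 6 medians of -0.59 and -0.58. Lin28a and Lin28b were lower in E3-KO than in E1-KO, at -1.18 and -0.61. Both of these calls, and that of Igf2bp3 against E2-KO, were lost in some fits with 1 sample left out.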

How the results depend on the processing

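Of the 24 calls of members in all 6 comparisons, all 24 kept their direction and call with quantile normalization, with a pseudocount of 0.1, with repeated identifiers summed and with the replicate block. The count was 23 with median-ratio scaling, 22 without the trend, 21 with only the pair fitted and 20 with all genes above 0. With a mean of at least 5 FPKM it was 23, with 1 not in the fit, and with chromosome 6 left out 21, with the 3 of Igf2bp3 not in the fit. Leaving out 1 sample kept 17 to 23. Replicates of the same number showed little shared deviation across groups (correlations of deviations from -0.042 to 0.089). Such values cannot show whether the samples were handled in pairs. Under the replicate block Igf2bp2 in E2-KO versus WT passed (limma-trend adjusted p = 0.0367), Dazl in E2-KO, Pum2 in E1-KO and Tarbp2 in E1-KO missed the threshold (adjusted p = 0.0507, 0.0563 and 0.0634), and the count of genes called between E2-KO and E1-KO was 31 in place of 94. That count was 1 with the pair alone, 1 with all genes above 0 and 58 with a mean of at least 5 FPKM. Between E3-KO and E2-KO, 1754 genes became 672 with the pair alone, and the members called went from 2 to 1 with the pair alone and to 1 without chromosome 6. The cause was not tested, apart from fewer samples or genes by construction.

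Leaving out each sample gave 2023 to 4678 called genes in E1-KO versus WT (4284 with all), 1852 to 4454 in E2-KO versus WT (4071), 2810 to 5353 in E3-KO versus WT (5037), 2 to 263 in E2-KO versus E1-KO (94), 1306 to 3294 in E3-KO versus E1-KO (2911) and 981 to 1556 in E3-KO versus E2-KO (1754). For the members these ranges were 3 to 7 (6 with all), 3 to 6 (5), 5 to 7 (7), 0 to 1 (0), 2 to 5 (4) and 2 to 3 (2). Values that changed sign were all uncalled. With quantile normalization they were Dppa5a in E2-KO versus E1-KO (-0.07) and E3-KO versus E2-KO (0.16), Igf2bp1 in E3-KO versus E2-KO (0.09), Dgcr8 in E2-KO (0.03), Hmga2 in E1-KO (0.10) and Rbl1 in E1-KO (0.02). With median-ratio scaling they were Trim71 in E1-KO (0.02), Igf2bp3 in E1-KO (0.02), Dppa5a in E3-KO versus E2-KO (0.08), Igf2bp1 in E3-KO versus E2-KO (0.09), Dgcr8 in E2-KO (0.02) and Hmga2 in E1-KO (0.04). The ranges over the leave-one-out fits crossed 0 for Dppa2 (-0.34 to 0.19), Lin28a (-0.72 to 0.21) and L1td1 (-0.48 to 0.16) in E2-KO versus E1-KO. In E3-KO versus E2-KO they crossed 0 for Dppa4 (-0.21 to 1.14), Dppa5a (-0.18 to 0.17), L1td1 (-0.47 to 0.17) and Igf2bp1 (-0.18 to 0.17, and 0.06 without E3-KO replicate 1). Against WT they did so for Dppa4 (-0.05 to 0.74) and Dgcr8 (-0.16 to 0.05) in E2-KO, Lin28a (-0.19 to 0.46) and Peg10 (-0.10 to 0.23) in E3-KO and Igf2bp3 (-0.13 to 0.04) in E1-KO, and in E3-KO versus E1-KO for Dppa5a (-0.11 to 0.24). With 2 samples a group, no limit from counting depth can be given for genes at low FPKM such as Lin28b.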

Other observations

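Dppa1, a family relative that was not among the genes chosen and is named after its values were seen, was at 0.347 and 0.148 FPKM in WT and listed at 0 in both E1-KO samples. It was at 0.0485 and 0.107 FPKM in E2-KO and at 3.18 and 0.759 FPKM in E3-KO, where both samples were above all others.

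Genes next to the members did not follow them in a single direction. Snf8, a subunit of the ESCRT-II complex 28945 bases from Igf2bp1, rose in E1-KO, E2-KO and E3-KO by log2 values of 0.71, 0.82 and 0.94 (limma-trend adjusted p = 0.00196, 0.00113 and 0.000396). Glb1, the lysosomal beta-galactosidase gene 32235 bases from Trim71, fell by 1.17, 1.00 and 1.11. Gpnmb, a membrane glycoprotein gene 14294 bases from Igf2bp3 on chromosome 6, fell by 1.53, 1.53 and 1.05. Kank4, 16418 bases from L1td1, rose by 0.82 and 0.52 in the first 2 groups, with a value of -0.24 in E3-KO. Prep, a peptidase gene 209422 bases from Lin28b, fell by 0.95 and 0.44 in the E1-KO and E2-KO samples and rose by 0.46 in E3-KO (limma-trend adjusted p = 0.00401). These neighbours were listed by position but named here after their values were seen, and the unnamed ones varied. Gsta4, 157703 bases from Dppa5a, passed in no comparison with WT (log2 -0.19, 0.17 and -0.08). Nectin3, 1785208 bases from Dppa4, passed in none either (log2 0.05, -0.12 and -0.36). B4galnt2, 42272 bases from Igf2bp1, had log2 values of -0.46, -1.50 and -1.25.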
